A study of Homo sapiens with 2 samples.

Results

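The genes described here are the human ZNF genes, a large set of genes that encode zinc finger proteins, in the Hodgkin lymphoma cell line L-540. They were taken as every probe set whose single platform gene symbol begins with ZNF and a digit, which gave 304 probe sets for 235 genes out of 11963 genes with a symbol of their own on the array. Gene expression was compared between 1 culture of L-540 cells treated with vorinostat, an inhibitor of histone deacetylases, and 1 culture left untreated, each on 1 Affymetrix HG_U133A array. L-540 is an established cell line, the labels gave neither dose nor time of treatment, and they named no vehicle. There were no replicates, so no difference below had a replicate check and no test was run.

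Most ZNF proteins bind DNA through repeated fingers of the C2H2 kind, in which a pair of cysteines and a pair of histidines hold a zinc ion. Many carry in addition a KRAB domain, which recruits the corepressor TRIM28. TRIM28 in turn brings in the histone methyltransferase SETDB1, the HP1 proteins that bind methylated histone H3, and the deacetylase complex NuRD, and the bound locus is silenced. A large share of the human KRAB genes lies in tandem arrays on chromosome 19, and many of their proteins bind retroelements. Others with the ZNF symbol have no KRAB domain, and some act in the mitotic spindle, in RNA metabolism or in SUMO conjugation rather than at promoters.

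Values were MAS5 signals, linear intensities with 1 value per probe set and array. The trimmed mean was 500.2 on both arrays and the median signal was 115 in vorinostat-treated and 126 in untreated cells. Where a gene had several probe sets, the one brightest on average on the log2 scale stood for it. The gene counted as measured if its signal on either array was above a floor of 68.9, the 40th percentile of both arrays. Lower signals were raised to this floor, and where that happened on 1 array the fold is a lower limit ("at least"). Ratios are vorinostat over untreated throughout. Of 10 Hodgkin cell markers 9 were measured, 3 with higher and 6 with lower signals in treated cells, from GATA3 (log2 ratio 0.42) through IRF4 (0.29) and IL2RA (-0.24) to TNFRSF8, which encodes CD30 (-1.74), and BATF3 (-1.76). Of the T-cell markers 5 of 5 were measured, all with lower signals in treated cells, among them CD247 with 942 in treated and 4463 in untreated cells. The B-cell genes MS4A1, CD79A and CD79B were under the floor on both arrays, while PAX5 had 127 in treated and 313 in untreated cells. Among markers of other cells CD14, LYZ and EPCAM were under the floor. CSF1R (149 in treated and 207 in untreated cells) and ITGAM (76.5 in treated and 129 in untreated cells) were above it. So were COL1A1 (273 in treated and 276 in untreated cells) and the red-cell gene HBB (183 in treated and 178 in untreated cells). COL1A2 (97.8) and KRT18 (76.4) were above it in treated cells only, with 48.2 and 49.7 in untreated cells. Both cultures were of a single cell line. Fewer cells with a transcript and less of it per cell cannot be told apart in such samples.

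Of the 235 ZNF genes, 145 (61.7%) were measured, against 69.2% of all genes. The other 90 were under the floor on both arrays and give no ratio. Among the measured genes 123 were above the floor on both arrays, 17 were at the floor in treated and 5 in untreated cells. Just under the floor were ZNF136, ZNF185 and ZNF623, whose higher signals were 67.7, 68.5 and 68.7. Just above it were ZNF717 (69.5), ZNF286A (69.5) and ZNF217-AS1 (70.7). Of all 235, 226 were annotated as protein-coding, 6 as transcribed pseudogenes and 3 as long noncoding RNAs antisense to a ZNF gene.

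Most ZNF transcripts in vorinostat-treated cells were within 2-fold of their untreated level. Of the 123 genes above the floor on both arrays 117 (95.1%) lay there, against 90.9% of all 7373 such genes. A further 17 ZNF genes at the floor on 1 array had only a lower limit short of 2-fold and cannot be placed. Of all 8277 measured genes 8.89% were at least 2-fold apart in either direction. At least 2-fold higher in treated cells were 3 ZNF genes (2.07%, where 3.77% of all measured genes were), namely ZNF324, ZNF277 and ZNF212. At least 2-fold lower were 8 (5.52%, where 5.12% of all measured genes were), namely ZNF710, ZNF282, ZNF395, ZNF444, ZNF446, ZNF787, ZNF688 and ZNF629. The share of lower genes is near that of the whole array, and the share of higher genes rests on 3 genes. The median log2 ratio of the measured ZNF genes was -0.09 with quartiles of -0.41 and 0.23, beside a median of -0.04 and quartiles of -0.39 and 0.31 over all measured genes. Scaling the arrays to equal medians moved the median of all genes to 0.08 and that of the ZNF genes to 0.04, so the sign of the ZNF median depends on the scaling, and in both it was below that of all genes. At a threshold of 1.5-fold 10 ZNF genes were higher (against 12.7% of all) and 21 lower (against 15.5% of all). At 3-fold 1 was higher, ZNF324 (0.544% of all were), and 1 lower, ZNF710 (0.93% of all were).

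**Figure D1:**
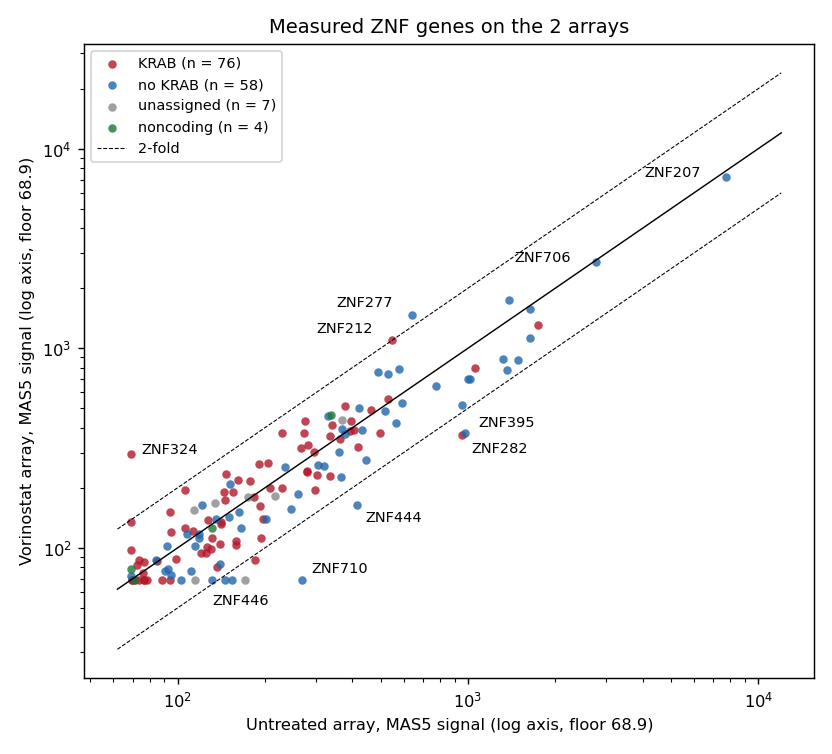
MAS5 signals of the 145 measured ZNF genes in vorinostat-treated cells (vertical, log axis) and untreated cells (horizontal, log axis), 1 point per gene coloured by protein class, with signals under the floor of 68.9 drawn at it. The solid line marks equal signals and the dashed lines 2-fold; 3 genes lie on or above the upper dashed line and 8 below the lower one.

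ZNF324, a KRAB gene near the end of chromosome 19, had the largest fold among the ZNF genes higher in treated cells. Its signal was 294 in treated cells and 49.2 in untreated cells, which is under the floor, so it was at least 4.27-fold higher. It rests on 1 probe set with a suffix that marks sequence shared with other transcripts. ZNF277 encodes a zinc finger protein that binds the ribosomal protein RPS2 in human cells. Its signal was 1475 in treated and 643 in untreated cells (2.30-fold higher), and its other probe set, with 204 in treated and 149 in untreated cells, went the same way by a smaller step, so that the median log2 ratio of both was 0.82. ZNF212, a KRAB gene of a chromosome 7 cluster, had 1101 in treated and 546 in untreated cells (2.01-fold higher), which is close to the threshold and just short of it after loess (log2 ratio 0.996).

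The next highest genes were mostly KRAB genes. ZNF250 had a signal of 135 in treated cells and 67.0, under the floor, in untreated cells (at least 1.96-fold higher). ZNF510 had 195 in treated and 106 in untreated cells (1.85-fold higher). After each of the other scalings it was just past 2-fold, with log2 ratios of 1.002 to 1.03. ZNF394, reported to dampen MAP kinase signalling to AP-1, had 374 in treated and 229 in untreated cells (1.64-fold). Of the same order were the log2 ratios of ZNF764 (0.68), ZNF79 (0.67) and ZNF557 (0.65), although the other measured probe sets of ZNF764 and ZNF79 had log2 ratios of -0.01 and -0.19. ZNF143 is no KRAB protein but an activator that binds the promoters of small nuclear RNA genes and of many housekeeping genes. Its signal was 758 in treated and 489 in untreated cells (1.55-fold higher). Its relative ZNF76 was under the floor on both arrays.

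ZNF710 had the largest fold among the ZNF genes lower in treated cells. Its signal was 27.4 in treated cells, under the floor, and 269 in untreated cells (at least 3.90-fold lower), and its second probe set, with 39.5 in treated and 110 in untreated cells, gave a bound of -0.68 in log2 ratio. ZNF282, also called HUB1, is a KRAB protein found through its binding to the long terminal repeat of the human T-cell leukaemia virus. It had 367 in treated and 957 in untreated cells (2.61-fold lower). ZNF395, which binds the promoter of the huntingtin gene and responds to hypoxia, had 377 in treated and 979 in untreated cells (2.59-fold lower).

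The remaining genes past 2-fold were ZNF444, ZNF446, ZNF787, ZNF629 and ZNF688. ZNF444, a protein with a SCAN domain, which pairs such proteins with each other, had 163 in treated and 413 in untreated cells (2.53-fold lower). ZNF446 (at least 2.47-fold lower), ZNF787 (at least 2.24-fold) and ZNF629 (at least 2.11-fold) were under the floor in treated cells. ZNF688, a KRAB gene, had 86.8 in treated and 184 in untreated cells (2.12-fold lower), with 37.5 in treated and 117 in untreated cells on its second probe set. After the other scalings the log2 ratio of ZNF688 was -0.96 to -0.94 and that of ZNF629 -0.97 to -0.94, both within 2-fold. ZNF688 lay within 2-fold too with the median over its probe sets (-0.93) and without its shared-sequence probe set (-0.77).

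Several genes short of 2-fold have known parts in leukaemia or in metabolism. ZNF692, which represses the gluconeogenic gene PCK1 and is a target of the kinase AMPK, had 517 in treated and 953 in untreated cells (1.84-fold lower). ZNF384, a partner in fusion genes of acute leukaemia, had 780 in treated and 1365 in untreated cells (1.75-fold lower). ZNF292, which is recurrently mutated in chronic lymphocytic leukaemia, had 868 in treated and 1486 in untreated cells (1.71-fold lower), and its second probe set had a log2 ratio of -0.36. ZNF217, an oncogene of breast cancer whose protein sits in CoREST and CtBP complexes, had 226 in treated and 365 in untreated cells (1.62-fold lower). ZNF783, ZNF227 and ZNF821 were 1.72-fold, 1.70-fold and 1.69-fold lower, and the SCAN protein gene ZNF232 was 1.62-fold lower. All 7 measured genes of a hand-picked list of leukaemia and lymphoid genes had ratios below 1, as had 61.4% of measured ZNF genes and 53.0% of all measured genes, and ZNF165 was not measured. The median log2 ratio of this list was -0.53, and 1 of the 7, ZNF395, was past 2-fold, as were 8.89% of all measured genes. ZNF146 (1.44-fold lower), ZNF467 (1.19-fold), ZNF423, a partner of the B-cell factor EBF1 (1.18-fold), and ZNF318 (1.17-fold) were the others.

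**Figure D2:**
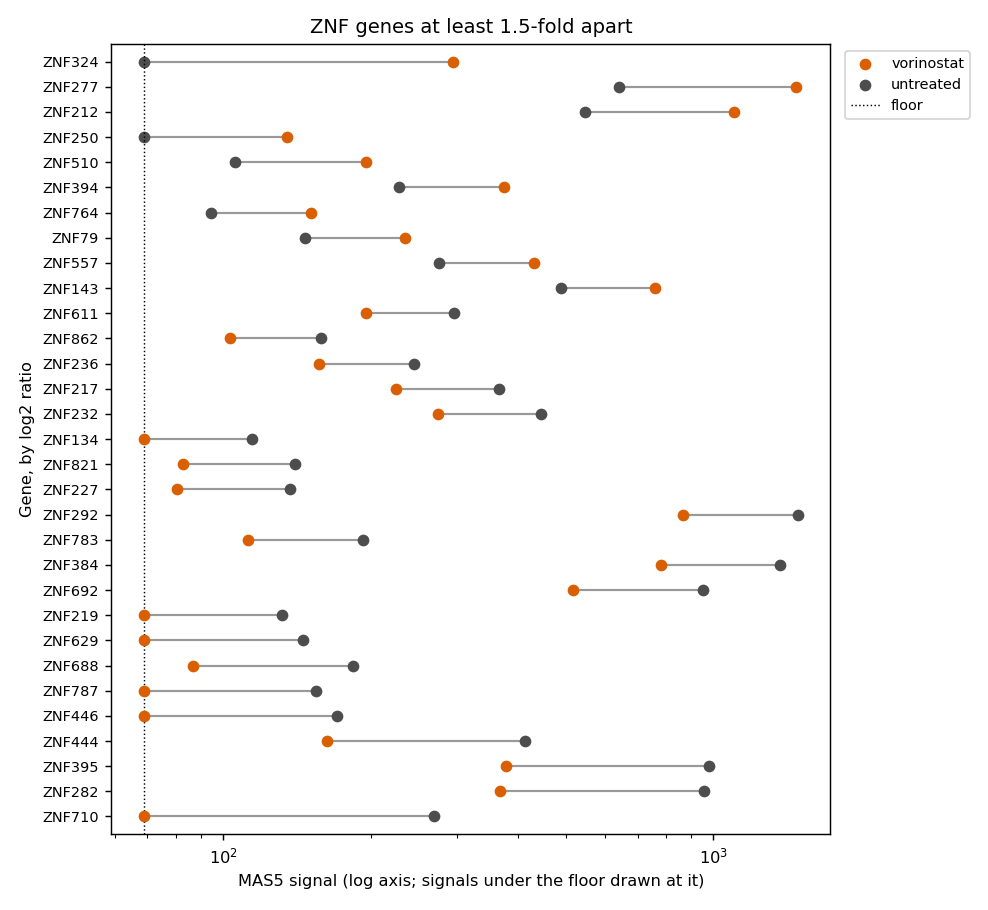
MAS5 signals (log axis) of the 31 ZNF genes at least 1.5-fold apart, with 1 point for vorinostat-treated and 1 for untreated cells per gene, joined by a line and ordered by log2 ratio. The 10 genes at the top were higher in treated cells and the 21 below them lower, and 8 of the 31 touch the floor (dotted line) on 1 array.

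The family was next divided by protein class. Of the 235 genes, 134 were assigned to proteins with a KRAB domain and 81 to proteins without one, from general knowledge of these proteins, while 11 stayed unassigned and 9 were noncoding. Fewer KRAB genes were measured, 76 of 134 (56.7%), against 58 of 81 genes without KRAB (71.6%). Outside chromosome 19 the shares were close, 36 of 51 KRAB genes (70.6%) and 50 of 69 genes without KRAB (72.5%). On chromosome 19 they were 40 of 83 (48.2%) and 8 of 12 (66.7%). The measured KRAB genes had a median log2 ratio of -0.03 (quartiles -0.36 and 0.26), with 2 higher and 2 lower past 2-fold. Genes without KRAB had a median of -0.23 (quartiles -0.57 and 0.05), with 1 higher and 5 lower. Ratios below 1 were found for 42 of 76 KRAB genes (55.3%) and for 42 of 58 genes without KRAB (72.4%), beside 53.0% of all measured genes. Of the 10 ZNF genes at least 1.5-fold higher 8 were KRAB genes, and of the 21 at least 1.5-fold lower 6 were KRAB genes, 13 were without KRAB and 2 were unassigned. The difference between the classes was not tested. After scaling to equal medians the median was 0.09 for KRAB genes and -0.10 for genes without KRAB, and after quantile normalization 0.08 and -0.13, so the KRAB median changed sign and the order of the classes did not.

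Chromosome 19 carried 103 of the 235 genes, more than any other, followed by chromosome 16 with 18 and chromosome 7 with 13. On chromosome 19, 50 genes were measured (48.5%), against 95 of 132 on the other chromosomes (72.0%). The ZNF genes of chromosome 19 had a median log2 ratio of -0.19, with 1 higher and 3 lower past 2-fold, against a median of -0.04 with 2 higher and 5 lower for those elsewhere. The 489 measured genes of chromosome 19 that are no ZNF genes had the same median, -0.19, with 1.43% higher and 8.18% lower past 2-fold. Within chromosome 19 the 40 KRAB genes had a median of -0.10 and the 8 genes without KRAB one of -0.56, and on the other chromosomes the 36 KRAB genes had 0.05 and the 50 genes without KRAB -0.16. Of the measured genes, 25 of 50 on chromosome 19 and 35 of 95 elsewhere rest on probe sets with a shared-sequence suffix. Without such probe sets the median was -0.23 on chromosome 19 and -0.03 on the other chromosomes.

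**Figure D3:**
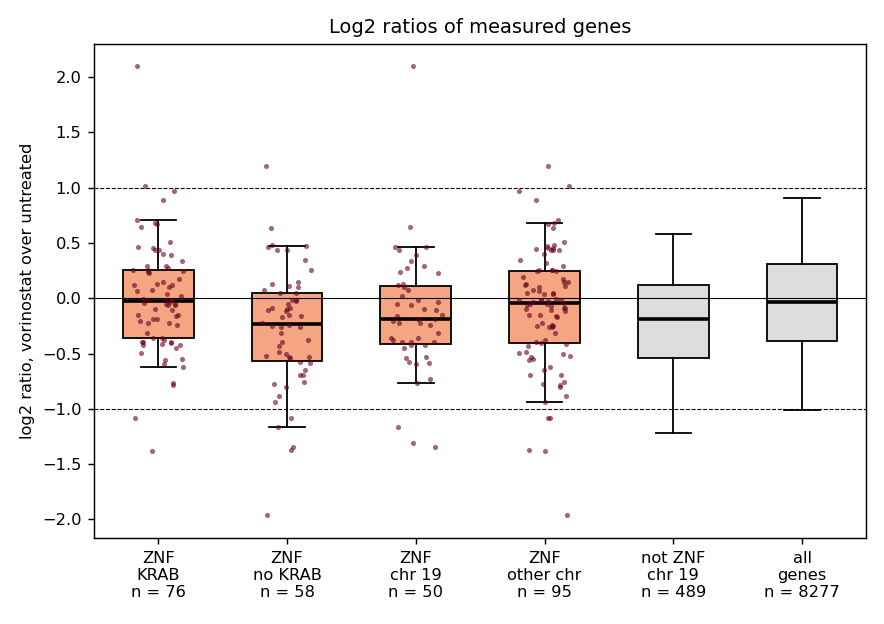
Log2 ratios (vorinostat over untreated) of measured genes by protein class and chromosome; boxes span the quartiles with the median as a line, whiskers reach the 5th and 95th percentiles, points are single ZNF genes and dashed lines mark 2-fold. The ZNF genes of chromosome 19 and the other genes of that chromosome share a median of -0.19, and all measured genes have one of -0.04.

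Neighbouring ZNF genes did not always share a direction. Among 20 pairs of measured ZNF genes that are next to each other in the order of protein-coding genes, 8 had log2 ratios of opposite sign and 12 of the same sign, and 5 pairs were at least 1 log2 unit apart. The share for pairs of other genes was not computed, so these counts show nothing particular to ZNF neighbours. Probe sets of the same ZNF gene differed in sign in 10 of 34 genes. Runs of ZNF genes less than 300 kb apart show the directions of neighbours in detail. On chromosome 7, ZNF282 was 2.61-fold lower and its neighbour ZNF212 2.01-fold higher, and ZNF783 beside ZNF212 had 112 in treated and 193 in untreated cells (1.72-fold lower). ZNF862 at the end of the same run had 103 in treated and 158 in untreated cells (1.54-fold lower).

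A run of 7 genes on chromosome 16 held ZNF747 (1.46-fold lower), ZNF764 (log2 ratio 0.68), ZNF688 (2.12-fold lower) and ZNF629 in that order. The other probe set of ZNF764 had a log2 ratio of -0.01, so its contrast with ZNF747 and ZNF688 rests on the brighter probe set. The longest run, 27 genes near the end of chromosome 19 of which 19 were measured, had its calls at the end: none of the first 17 measured genes passed 2-fold, although ZNF134 (at least 1.66-fold lower), ZNF154 and ZNF606 are bounds, and then came ZNF324, at least 4.27-fold higher, and ZNF446, at least 2.47-fold lower. ZNF324B, the close relative of ZNF324 in the same run, had 135 in treated and 141 in untreated cells, a log2 ratio of -0.06. In the run on chromosome 19 that begins with ZNF45 and ends with ZNF180, 4 of 14 genes were measured and none of these passed 2-fold.

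**Figure D4:**
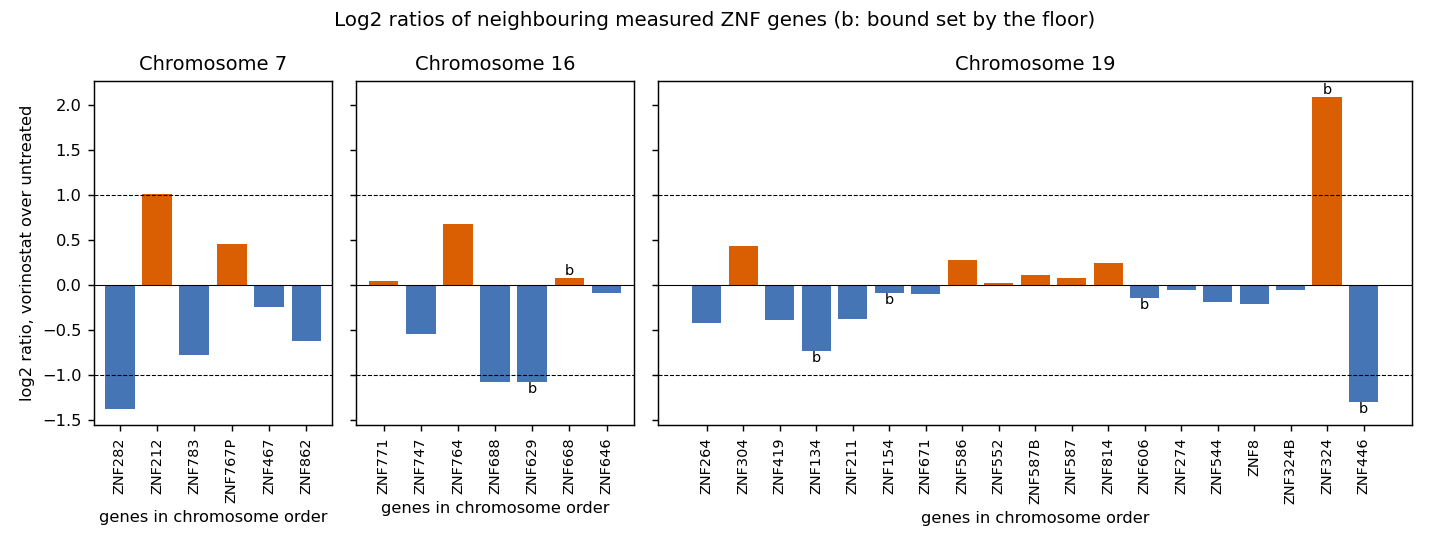
Log2 ratios (vorinostat over untreated) of the measured ZNF genes in 3 runs of neighbours, in chromosome order but not to scale in distance; dashed lines mark 2-fold and the letter b marks a bound set by the floor. ZNF282 and ZNF212 on chromosome 7 and ZNF324 and ZNF446 on chromosome 19 stand side by side with opposite signs.

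Promoter sequences are shown for these neighbours, since they lie close together and differ in ratio. Each is the 250 bases before the annotated start, 5' to 3' on the gene's strand, from RefSeq on GRCh38.p14; capitals mark matches, on either strand, to any of the motifs listed after the sequences. The chromosome 19 promoters lie at chr19:58451372-58451621 (ZNF324B), chr19:58466830-58467079 (ZNF324) and chr19:58476102-58476351 (ZNF446, the more upstream of 2 starts), and those of chromosome 7 at chr7:149195296-149195545 (ZNF282) and chr7:149239401-149239650 (ZNF212), all on the plus strand.
ZNF324: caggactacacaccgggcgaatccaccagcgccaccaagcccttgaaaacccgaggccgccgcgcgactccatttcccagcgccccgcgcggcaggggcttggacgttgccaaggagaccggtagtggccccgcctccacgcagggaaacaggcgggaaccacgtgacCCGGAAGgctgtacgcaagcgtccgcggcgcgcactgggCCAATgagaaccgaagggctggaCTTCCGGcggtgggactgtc
ZNF324B: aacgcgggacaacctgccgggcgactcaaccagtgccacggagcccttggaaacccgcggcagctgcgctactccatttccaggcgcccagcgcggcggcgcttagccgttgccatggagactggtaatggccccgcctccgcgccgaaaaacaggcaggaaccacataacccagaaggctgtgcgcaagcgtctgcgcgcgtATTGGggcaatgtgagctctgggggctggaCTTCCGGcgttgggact
ZNF446: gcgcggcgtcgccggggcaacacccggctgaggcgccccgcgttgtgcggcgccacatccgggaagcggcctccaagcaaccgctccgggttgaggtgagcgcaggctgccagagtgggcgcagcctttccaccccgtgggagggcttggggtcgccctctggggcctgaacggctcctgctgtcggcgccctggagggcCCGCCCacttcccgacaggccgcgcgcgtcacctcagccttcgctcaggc
ZNF212: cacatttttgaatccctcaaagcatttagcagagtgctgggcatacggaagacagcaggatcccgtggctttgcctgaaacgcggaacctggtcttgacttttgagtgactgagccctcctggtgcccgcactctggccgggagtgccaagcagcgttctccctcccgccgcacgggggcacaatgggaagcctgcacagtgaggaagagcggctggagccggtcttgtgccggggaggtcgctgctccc
ZNF282: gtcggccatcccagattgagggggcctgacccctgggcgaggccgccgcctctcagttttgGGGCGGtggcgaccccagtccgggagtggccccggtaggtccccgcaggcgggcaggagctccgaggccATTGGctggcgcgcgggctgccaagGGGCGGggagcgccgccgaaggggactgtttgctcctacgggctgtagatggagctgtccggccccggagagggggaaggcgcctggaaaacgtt

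The windows of ZNF324 and ZNF324B were alike: in a global alignment 202 of 255 columns (79.2%) were identical, against 49.2% for ZNF446 and ZNF324 and 48.0% for ZNF212 and ZNF282. The motifs searched on both strands were the SP1 box GGGCGG, the NFY box CCAAT, the ETS site CCGGAAG, the NRF1 core GCATGCGC and the ZNF143 core ACTACAA; none of them contains another. ZNF324 held 2 ETS sites and 1 NFY box, and ZNF324B 1 of each. The window of ZNF282 held 2 SP1 boxes and 1 NFY box, that of ZNF446 1 SP1 box, and that of ZNF212 held none of the motifs. The number of CG dinucleotides was 28 for ZNF324, 25 for ZNF324B, 29 for ZNF446, 14 for ZNF212 and 23 for ZNF282.

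RefSeq promoters were found for 196 of the 235 ZNF genes. The ETS site was present in 33.2% of them, against 8.78% of 27305 promoters of all genes and 15.9% of the 6839 promoters of measured genes. It was present in 38.5% of 117 KRAB promoters and 25% of 68 promoters of genes without KRAB. The SP1 box was found in 59.2% of ZNF promoters, above the 42.2% of all genes but below the 66.0% of measured genes. The NFY box was found in 42.9% of ZNF promoters, against 33.0% of all and 36.3% of measured genes. The NRF1 core was found in 6.63% (2.83% of all and 4.796% of measured genes) and the ZNF143 core in 6.63% (2.63% of all and 3.52% of measured genes). Of the 125 promoters of measured ZNF genes, 38.4% held the ETS site and 60% the SP1 box. Of the 8 promoters of ZNF genes at least 1.5-fold higher, 5 held the ETS site and 3 the SP1 box. Of the 19 of genes at least 1.5-fold lower, 4 held the ETS site and 14 the SP1 box. Whether these sets differ was not tested. These counts are small and describe the letters of the windows, not binding.

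Of the 10 ZNF genes with the highest signals, ZNF277 was past 2-fold, as given above, ZNF384, ZNF292 and ZNF146 were 1.75-fold, 1.71-fold and 1.44-fold lower, and others were closer to level. ZNF207, whose protein BuGZ loads the checkpoint protein BUB3 at kinetochores, had 7191 in treated and 7714 in untreated cells (log2 ratio -0.10). ZNF706 had 2706 in treated and 2756 in untreated cells (-0.03), and ZNF638, which silences unintegrated retroviral DNA together with the HUSH complex, 1571 in treated and 1633 in untreated cells (-0.06). The nucleolar ZNF330 had 1750 in treated and 1380 in untreated cells (0.34). The SUMO ligase gene ZNF451 had 783 in treated and 578 in untreated cells (0.44), but its second probe set had a log2 ratio of -0.21. ZNF593, a factor of ribosome assembly, had a log2 ratio of -0.26 and the RNA-binding ZNF106 one of 0.25. These genes, from ZNF207 to ZNF106, belong to a list of parts in RNA, ribosomes, the spindle, ubiquitin or the cytoskeleton. In this list 7 of 8 were measured. All 7 lay within 2-fold (median -0.03), where 91.1% of all measured genes did not pass it. ZNF266, a KRAB gene, and ZNF580 were among the highest signals too, with 1306 and 878 in treated against 1746 and 1317 in untreated cells (log2 ratios -0.42 and -0.58).

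Repressors of retroelements and of zinc finger genes did not differ by 2-fold where they were measured, like 91.1% of all measured genes. ZNF93, which binds LINE-1 elements, had 386 in treated and 391 in untreated cells (log2 ratio -0.02). Its other probe set was under the floor on both arrays (28.4 in treated and 10.2 in untreated cells). ZNF274, which recruits SETDB1 to the 3' ends of other zinc finger genes, had 200.4 in treated and 208 in untreated cells (-0.06), and ZNF587 had 488 in treated and 464 in untreated cells (0.07). The values of ZNF93, ZNF274 and ZNF587 all rest on probe sets with a shared-sequence suffix. ZNF91, the repressor of SVA elements, was under the floor on both arrays.

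Of all measured genes 91.1% did not pass 2-fold. Of 12 KRAB repressors with a probe set that have been studied singly, 8 were measured (median of the list 0.03). ZNF282 was past 2-fold and the other 7 within it. Among these ZNF202, a repressor of lipid genes, had a log2 ratio of -0.06, ZNF224, a cofactor of WT1, -0.39, and ZNF189 0.40; ZNF133, ZNF160 and ZNF175 lay at 0.12 to 0.13 and ZNF331 at -0.16. ZNF10, the source of the KRAB domain used in CRISPR interference, was under the floor on both arrays, as were ZNF205, ZNF268 and ZNF350. Of 8 partners of corepressor complexes with a probe set 6 were measured and 0 passed 2-fold (median -0.47), with ZNF219 a bound. Short of 2-fold, too, were 91.1% of all measured genes. ZNF219 was at least 1.91-fold lower, ZNF652 1.43-fold lower and ZNF148 1.35-fold lower, while ZNF281 was 1.39-fold higher and ZNF592 had a log2 ratio of 0.10. ZNF516 and ZNF532 were under the floor on both arrays. The treated signal of ZNF219, 33.7, is under the floor (131.6 in untreated cells). A lower floor of 28.4, at the 25th percentile, lies below both signals and put its log2 ratio at -1.96.

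Genes with several probe sets show how closely readings of 1 transcript match within these arrays. In 34 ZNF genes at least 2 probe sets were measured. All probe sets went the same way in 24 of these genes and in different directions in 10, and the median gap between the highest and lowest log2 ratio of a gene was 0.28. The widest gap was 1.28, for ZNF710, and in 0 genes did probe sets lie past 2-fold in opposite directions. In ZNF24, a SCAN protein, the log2 ratios of all 3 probe sets lay between -0.74 and -0.51, and in ZNF609 those of 3 between -0.71 and -0.26. ZNF821 had -0.76 on one probe set and -0.84 or less on the other. ZNF142 lay at -0.32 on its brightest probe set and at -1.04 or less on the other. In ZNF473, which processes histone messenger RNA with the U7 particle, log2 ratios were 0.46 and at least 0.58. ZNF335, a subunit of a histone methyltransferase complex, had 0.47 on the brighter of its measured probe sets and -0.15 on the dimmer. ZNF576 had 0.47 and 0.19 on its probe sets, both with a shared-sequence suffix.

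The partners through which KRAB proteins silence genes were measured for 27 of 28 genes of a list (36 genes listed, 28 with a probe set of their own). None was at least 2-fold higher and 4 were at least 2-fold lower, 14.8% of the list beside 5.12% of all measured genes. TRIM28 itself had 4078 in treated and 4447 in untreated cells, a log2 ratio of -0.12. SUMO3, one of the SUMO proteins whose attachment to TRIM28 promotes silencing, had 1864 in treated and 3991 in untreated cells (2.14-fold lower), with a log2 ratio of -1.10 on each of its probe sets. DAXX, the histone H3.3 chaperone that acts with ATRX, had 229 in treated and 481 in untreated cells (2.10-fold lower) and 180.0 in treated against 360.2 in untreated cells on its other probe set.

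SETDB1, the methyltransferase of the pathway, had 252 in treated and 506 in untreated cells (2.01-fold lower), but 175 in treated and 198 in untreated cells on its second probe set (log2 ratio -0.18). The HP1 genes differed among themselves: CBX5 had 217 in treated and 460 in untreated cells (2.11-fold lower), with a log2 ratio of 0.01 on its dimmer probe set, whereas CBX1 was 1.62-fold higher. CBX3 was 1.32-fold higher on its brighter probe set and had 1341 in treated and 1437 in untreated cells on the other (log2 ratio -0.10). The SETDB1 partner ATF7IP was 1.83-fold lower. Of the HUSH complex, TASOR was 1.80-fold lower and MPHOSPH8 1.82-fold higher. The DNA methyltransferase gene DNMT1 had 762 in treated and 1520 in untreated cells (1.99-fold lower). After scaling to equal medians SUMO3, CBX5, DAXX and SETDB1 lay at log2 ratios of -0.97, -0.95, -0.94 and -0.88, all short of 2-fold. The median log2 ratio of the list was -0.12.

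**Figure D5:**
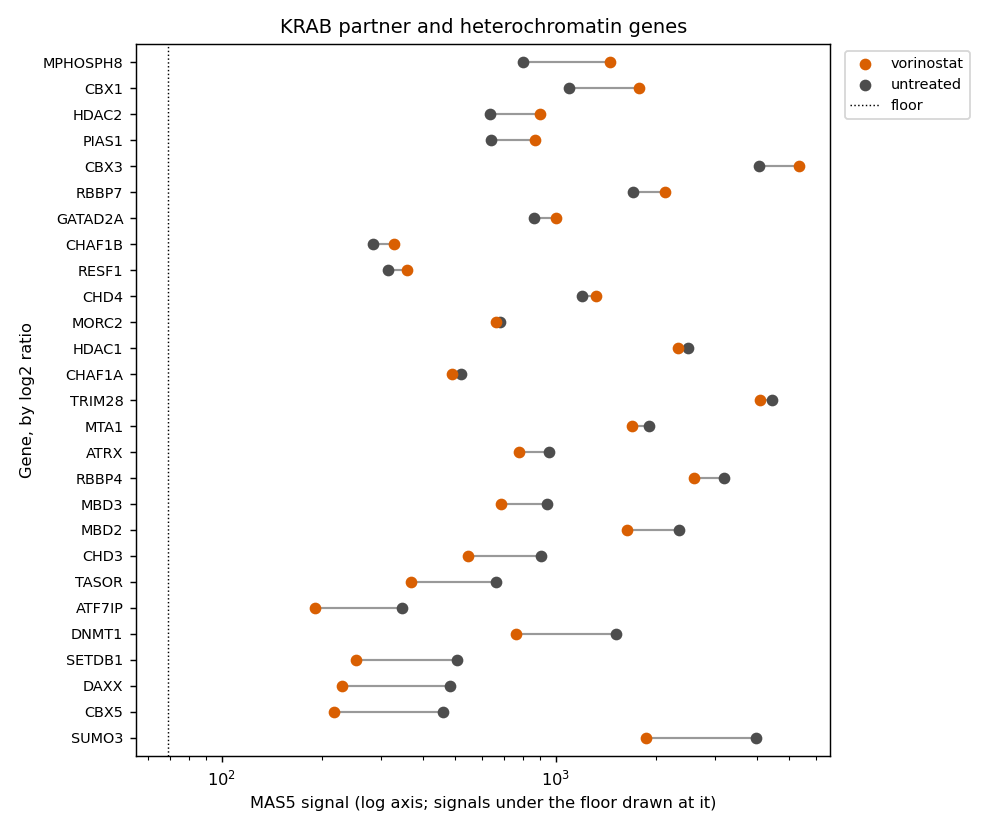
MAS5 signals (log axis) of the 27 measured genes of the KRAB partner and heterochromatin list, with 1 point for vorinostat-treated and 1 for untreated cells per gene, ordered by log2 ratio. SUMO3, CBX5, DAXX and SETDB1 at the bottom were at least 2-fold lower in treated cells, and TRIM28 was level.

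Zinc finger genes of the C2H2 kind with other symbols (ZBTB, ZSCAN, ZKSCAN, KLF, ZFP and a few more) were set beside the ZNF genes. Of 65 such genes 42 were measured. At least 2-fold lower were 9 of them (21.4%), against 5.52% of measured ZNF genes, and 0 were at least 2-fold higher, against 2.07%. The lower ones included ZFP64 (3.56-fold), ZBTB38, which binds methylated DNA (3.42-fold), and ZBTB1, a factor of lymphoid development with 1403 in treated and 4029 in untreated cells (2.87-fold). The medians were close, -0.06 for these genes and -0.09 for the ZNF genes. This set was put together after the ZNF values were known, and the difference was not tested.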

How the data were processed

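Per the labels' protocols, total RNA of L-540 cells was extracted with Trizol and labelled with biotin; the array, 1 per group, was HG_U133A per the series' design text. The deposited values were linear intensity values, 1 per probe set and array; the submitters' processing notes name MAS5. Its version, its scaling target and any detection calls are not given in the sources used here. The trimmed mean leaves out 2% of the values at each end. Of 22283 probe sets, 68 controls were left out, and 19065 had a single symbol in the platform annotation. Chromosome, biotype and gene order came from RefSeq (GRCh38.p14), where all 235 ZNF symbols matched by gene identifier.

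The floor was applied before taking log2, and 2-fold was a rule of size. With 1 array per group no p-value, error or interval can be given, and the number of arrays limits the precision. Protein sequences were not used here, so KRAB classes, planned from protein patterns, were assigned by hand from general knowledge. The ZNF genes, lists and comparisons were chosen with earlier results of these data known. Genes named were the 12 highest and 12 lowest above the floor on both arrays, up to 8 bounds each way past 2-fold, the 10 highest signals, the role lists, 3 genes on each side of the floor, any gene whose probe sets lie past 2-fold in opposite directions, and the partner genes past 2-fold with TRIM28, SETDB1 and the HP1 genes. ZNF250, ZNF24, ZNF609, ZNF142, ZNF324B, ZNF747, ZNF862, the pseudogenes, ATF7IP, TASOR, MPHOSPH8, DNMT1 and the other zinc finger genes were named after their values were seen. The alternatives tried were equal-median scaling, quantile normalization, loess (statsmodels 0.14.6), floors at the 25th and 60th percentile, an offset of 16, the median over probe sets, leaving out shared-sequence probe sets, and 1.5-fold and 3-fold thresholds. The steps were tested on simulated data with changes larger than 2-fold in genes well above the floor. That test does not cover calls close to 2-fold or close to the floor. Python 3.11.15 with pandas 2.3.3 was used.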

Additional observations from a re-analysis of the deposited data

How the results depend on the processing

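With 1 array per group these values describe 2 cultures, with no error to set beside them. No paired analysis was possible because each group had 1 array. The number of ZNF genes at least 2-fold higher was 3 as reported, 5 after scaling to equal medians, 5 after quantile normalization and 5 under a floor at the 25th percentile. Of all measured genes 3.77% were higher as reported, and 5.56%, 4.28% and 4.54% under these settings in turn. The number at least 2-fold lower was 8 as reported, 13 with the floor at the 25th percentile, 2 with it at the 60th and 5 without shared-sequence probe sets. These last 2 settings measured 67 and 91 ZNF genes in place of 145. Of all measured genes 5.12% were at least 2-fold lower as reported. This share was 6.82% and 4.32% with the floor at the 25th and 60th percentile and 4.83% without shared-sequence probe sets. At 1.5-fold 10 genes were higher and 21 lower, and at 3-fold 1 was higher and 1 lower. Scaling to equal medians put the median log2 ratio at 0.035 for ZNF genes, 0.094 for KRAB genes, -0.096 for genes without KRAB, -0.070 for chromosome 19, 0.072 for the other chromosomes and 0.0041 for the partner list. Quantile normalization put it at 0.078 for KRAB genes, -0.13 for genes without KRAB and -0.083 for chromosome 19. For single genes named, 430 values under the alternatives stayed on their side of 2-fold, 25 fell short of it and 5 newly passed it. Of the called ones 0 changed sign. Genes not measured under a setting gave no value there and are not in these counts. With the floor at the 60th percentile, ZNF446, ZNF787, ZNF629 and ZNF688 had no value. ZNF324, ZNF395 and ZNF446 had none without shared-sequence probe sets, since each has only 1 probe set, with such a suffix. The alternatives for partner genes were added after seeing the data. A floor at the 60th percentile shrank the bounds of ZNF324 and ZNF710 to log2 ratios of 0.37 and -0.23 and the log2 ratio of ZNF444 to -0.85, because that floor lies above their lower signals.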

Other observations

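Noncoding transcripts carry ZNF symbols too. Of 9 such genes 4 were measured, and 0 passed 2-fold, beside 8.89% of all measured genes. Their median log2 ratio was 0.07, and ZNF37BP and ZNF217-AS1 were bounds. The pseudogene ZNF767P, in the chromosome 7 run between ZNF783 and ZNF467, had 463 in treated and 337 in untreated cells (log2 ratio 0.46). ZNF271P had 125 in treated and 131 in untreated cells (-0.07).

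A further 15 probe sets carry a ZNF symbol together with other symbols and were left out because they cannot be assigned to 1 gene. Of these, 9 had a signal above the floor. None of the 9 was 2-fold higher in treated cells, and 1 was lower by more than 2-fold. Their log2 ratios ran from -1.54 (213 in treated and 623 in untreated cells) to 0.78 (671 in treated and 390.1 in untreated cells).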
